A study of Mus musculus with 6 samples.

Results

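The 10 genes described here are the mouse antigen presentation genes H2-Aa, H2-Ab1, H2-Eb1, Cd74, Ciita and H2-DMa of the MHC class II pathway, and B2m, H2-K1, H2-D1 and Tap1 of the class I pathway. They were chosen by gene symbol, and all 10 symbols were present among the 49997 symbols of the count table. RNA came from small pre-B cells, the B-cell precursors that rearrange light chain genes, purified by flow cytometry from bone marrow. Donors were C57BL/6 mice aged 6 to 12 weeks, either wild type (WT) or of the ΔrsCBE genotype, with 3 libraries each. Neither the deleted interval nor whether each library is 1 animal or a pool is given in the labels, so p-values measure the spread between these libraries, which may be partly technical. The question for these genes was whether their transcripts differ between the genotypes. Other stages of B-cell development were not sampled, so the known rise of these genes with maturation was not examined.

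MHC class II molecules are αβ dimers that show peptides from endocytosed proteins to CD4+ T cells, and class I molecules pair a heavy chain with β2-microglobulin to show cytosolic peptides to CD8+ T cells. Class II transcription depends on the coactivator CIITA, which has no DNA-binding domain and docks on factors bound to the conserved X and Y boxes of class II promoters. Class I promoters carry a related module and, in addition, an NF-κB site and an interferon-stimulated response element. In B-lineage cells both classes are present, and class II increases as precursors become immunoglobulin-bearing B cells.

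The promoter sequences below show matches to short motifs known from class I and class II promoters, class II first and class I after. The 2 classes differed widely in level in these cells, and whether the motifs bear on that was not tested. RefSeq windows on GRCm38.p6, from 250 bases before to 50 after a start site, were found for 7 of the 10 members. The motifs searched on both strands were the Y box TGATTGG, its inner core ATTGG, the X box core AGCAACNNA, the cyclic AMP element TGACGTCA, the κB letters GGGGATTCC, and 2 spellings of an interferon element, GAANNGAAA and GAAANNGAA. Capitals mark matches. Sequences read 5′ to 3′ on the gene's strand.
H2-Aa (chr17:34287857-34287907, minus strand, cyclic AMP element and Y box): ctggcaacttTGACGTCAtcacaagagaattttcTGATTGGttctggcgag
H2-Eb1 (chr17:34305765-34305822, plus strand, X box core and Y box): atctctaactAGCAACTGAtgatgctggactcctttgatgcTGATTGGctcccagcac
H2-K1 (chr17:34000419-34000468, minus strand, κB letters and interferon element): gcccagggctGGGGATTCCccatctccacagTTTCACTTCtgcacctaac
H2-D1 (chr17:35262913-35262962, plus strand, κB letters and interferon element): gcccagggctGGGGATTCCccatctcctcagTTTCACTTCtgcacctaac
B2m (chr2:122147538-122147648, plus strand, interferon element and inner core): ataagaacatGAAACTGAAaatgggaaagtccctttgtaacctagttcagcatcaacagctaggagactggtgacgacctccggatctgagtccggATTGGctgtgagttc
Tap1 (chr17:34187314-34187360, plus strand, Y box): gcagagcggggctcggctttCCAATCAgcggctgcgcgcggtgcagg

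The Y box letters occurred in 7 of the 8 class II chain genes with a window and in 8 of 14 class I and class I-like chain genes of the H2 region, against 7.82% of all 32851 windows. The class II exception was H2-DMa, which had a match to the inner core alone and is not printed. H2-K1 and H2-D1 are among the class I genes with Y box letters, which lie outside their printed stretches. The X box core was found in 4 of the 8 class II chain genes (H2-Eb1, H2-Eb2, H2-Oa and H2-Ob), in 0 of the 14 class I genes and in 3.84% of all windows. The κB letters were found in 0 of 8 class II and 4 of 14 class I genes (H2-K1, H2-D1, H2-Q6 and H2-Q7), against 0.25% of all windows. The interferon spelling GAANNGAAA occurred in 8 of the 14 class I genes, in 0 of the 8 class II genes and in 7.52% of windows. The other spelling occurred in B2m, in 2 of the 14 class I genes (H2-T22 and H2-T23), in 0 of the 8 class II genes and in 8.56% of windows. The cyclic AMP element of H2-Aa occurred in 1.79% of windows and the inner core in 37.4%. The printed stretches of H2-K1 and H2-D1 were identical at 49 of 50 bases. These matches are descriptions of letters, and binding was not measured.

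Total counts per library ran from 428106 (WT replicate 2) to 1300805 (WT replicate 3), so that 3 counts, taken as the detection floor, equal 2.38 to 7.36 CPM. CPM are read counts scaled to a common library size, here with TMM factors, and 3 values per genotype are always given in the order of replicates 1 to 3. ΔrsCBE replicates 2 and 3 had 1603 and 1430 counts of Xist, and the other 4 libraries had at most 1. These 2 libraries thus carry a female pattern that no WT library has. B-lineage markers were abundant in all libraries (summed 11912 to 14190 CPM in WT and 12798 to 13543 CPM in ΔrsCBE). Cell cycle transcripts were abundant as well: 16 such genes summed to 5907 to 6589 CPM in WT and 2470 to 4028 CPM in ΔrsCBE. Among them Mki67 had 3472, 3759 and 3476 CPM in the WT libraries, so these libraries were not free of RNA from cycling cells. Of the 16 cell cycle genes, 15 were tested and 11 were lower in ΔrsCBE past the threshold given below, with a median log2 fold change of -1.14. Whether this shift bears on the MHC values was not tested.

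In small pre-B cells the class II chain genes were expressed at a low level in both genotypes, and no difference between genotypes passed the test. H2-Aa (minus strand of chromosome 17, 34282744 to 34287823, positions here and after from GENCODE M21 on GRCm38), which encodes the class II A α chain, had 21.1, 27.0 and 22.2 CPM in the WT libraries and 21.8, 12.4 and 10.1 CPM in the ΔrsCBE libraries. ΔrsCBE replicate 1 lay within the WT range, and the 2 libraries with Xist counts lay below it. The log2 fold change, ΔrsCBE against WT, came to -0.63 ± 0.36 (SE, 95% interval -1.38 to 0.11, adjusted p-value 0.597 by edgeR). Only 8 to 28 reads per library stood behind these values, and in bulk RNA fewer cells with a transcript and less of it per cell cannot be told apart. Without ΔrsCBE replicate 1 the log2 fold change was -1.01 (edgeR unadjusted p-value 0.0192, adjusted 0.280). With sex as a covariate, a fit in which the genotype term rests on ΔrsCBE replicate 1 alone, it was -0.07.

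H2-Ab1 (chromosome 17, 34257689 to 34269419, plus strand) encodes the β chain that pairs with H2-Aa. It had 86.0, 58.9 and 39.6 CPM in the WT libraries and 75.0, 43.4 and 37.9 CPM in the ΔrsCBE libraries. The groups overlapped over nearly their whole range, with replicate 1 highest in both. Its log2 fold change, ΔrsCBE against WT, came to -0.17 ± 0.29 (SE, 95% interval -0.77 to 0.43, adjusted p-value 0.91 by edgeR), and the sign turned to 0.18 without WT replicate 1 and to 0.37 with the sex covariate.

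H2-Eb1 (chromosome 17, 34305867 to 34316674, plus strand) encodes the E β chain. C57BL/6 mice are known to lack its partner, the E α chain, because of a promoter deletion, and H2-Ea was listed at 0 in all 6 libraries. H2-Ea was looked up after the member values had been seen. H2-Eb1 itself had 10, 1 and 9 counts in the WT libraries and 15, 6 and 6 counts in the ΔrsCBE libraries, which is 2.45 to 16.2 CPM and 6.20 to 18.2 CPM. It was the 1 member below the count filter. In the fit without that filter the log2 fold change was 0.25 ± 0.52 (SE, adjusted p-value 0.913 by edgeR), so a difference was not detectable at this depth.

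Cd74 (chromosome 18, 60803848 to 60812652, plus strand) encodes the invariant chain, which blocks the class II groove until the complex reaches the endosome. It was the most abundant of the class II pathway members. Its levels were 159, 238 and 72.1 CPM in the WT libraries and 173, 110 and 121 CPM in the ΔrsCBE libraries. All 3 ΔrsCBE values lay inside the WT range, which was set by WT replicate 2 at the top and WT replicate 3 at the bottom. The coefficient of variation was 53.1% in WT, against 10.2% from counting alone. The log2 fold change of -0.08 had a standard error of 0.50 and a 95% interval from -1.40 to 1.23 (edgeR adjusted p-value 0.980). It was 0.31 without WT replicate 2 and -0.54 without WT replicate 3, so the data do not fix its direction.

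H2-DMa (chromosome 17, 34119541 to 34139101, plus strand), a chain of the endosomal peptide exchange factor DM, had 16.2, 22.1 and 8.71 CPM in the WT libraries and 13.3, 8.27 and 20.2 CPM in the ΔrsCBE libraries. The groups covered nearly the same range. The log2 fold change was -0.01 with a 95% interval from -0.93 to 0.91 (edgeR adjusted p-value 0.999), and it was 0.28 without ΔrsCBE replicate 2. Its annotated exons share 360 bases with Brd2 on the opposite strand, and it is not stated whether counting used the strand.

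Ciita (chromosome 16, 10480059 to 10528418, plus strand), the class II coactivator itself, had 42.2, 36.8 and 38.0 CPM in the WT libraries and 36.3, 22.7 and 29.0 CPM in the ΔrsCBE libraries. The highest ΔrsCBE value lay just under the lowest WT value, so the groups did not overlap, by a margin smaller than the spread of either group. Its log2 fold change, ΔrsCBE against WT, came to -0.42 ± 0.27 (SE, 95% interval -0.97 to 0.14, adjusted p-value 0.651 by edgeR). It was -0.60 without ΔrsCBE replicate 1, -0.25 without ΔrsCBE replicate 2 and -0.10 with the sex covariate. Between 15 and 48 reads per library were counted, and 329 exonic bases are shared with Dexi on the opposite strand.

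**Figure D1:**
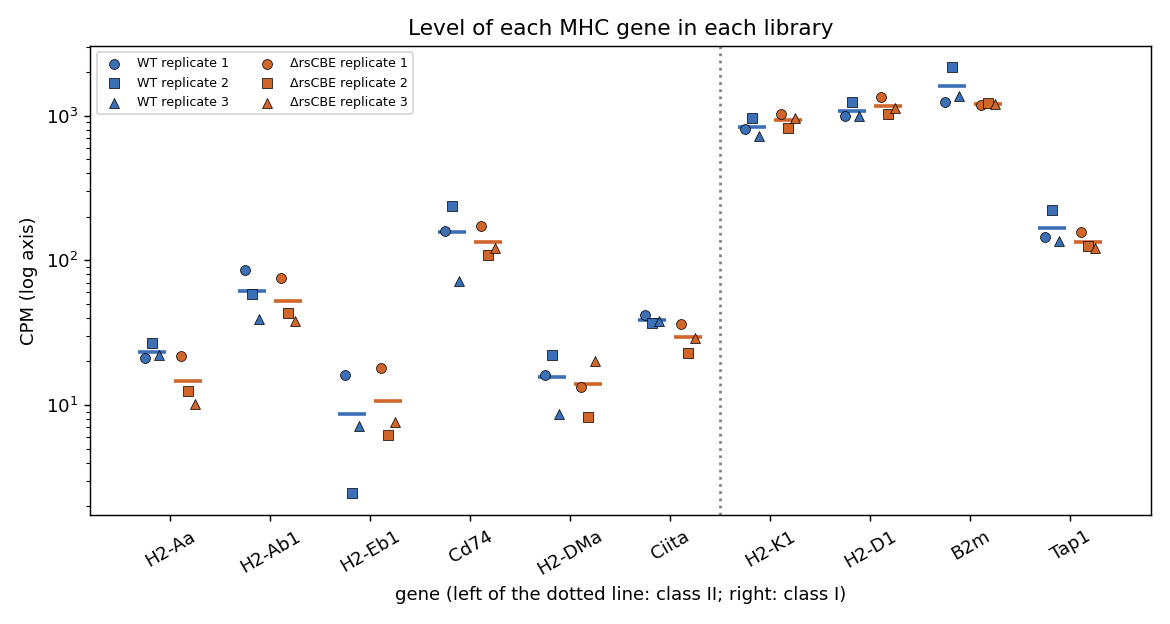
CPM (log axis) of each of the 10 genes in each library, with circles, squares and triangles for replicates 1 to 3 (blue WT, orange ΔrsCBE) and bars at the group means. Class I genes other than Tap1 lie between 727 and 2163 CPM, class II chains between 2.45 and 86.0 CPM, and the groups overlap for all genes except B2m and Ciita.

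The class I heavy chains and B2m were more abundant per length of transcript than all class II pathway members. No class I difference between genotypes passed the test in the main fit, with log2 fold changes from -0.40 for B2m to 0.18 for H2-K1. H2-K1 (chromosome 17, 33996017 to 34000347, minus strand), a classical heavy chain, had 813, 966 and 727 CPM in the WT libraries and 1022, 828 and 969 CPM in the ΔrsCBE libraries. H2-D1 (chromosome 17, 35262730 to 35267499, plus strand), the other classical heavy chain of this strain, had 995, 1236 and 991 CPM in the WT libraries and 1340, 1030 and 1128 CPM in the ΔrsCBE libraries. Both genes were highest in WT replicate 2 among WT libraries and in ΔrsCBE replicate 1 among ΔrsCBE libraries, and lowest in WT replicate 3 and ΔrsCBE replicate 2. The log2 fold changes were 0.18 for H2-K1 (standard error 0.11, 95% interval -0.05 to 0.41, edgeR adjusted p-value 0.640) and 0.12 for H2-D1 (standard error 0.11, 95% interval -0.10 to 0.35, edgeR adjusted p-value 0.781). These are the narrowest intervals of the 9 tested members, and a fold change above 1.33 for H2-K1 or 1.28 for H2-D1 lay outside them. Single libraries moved both values: H2-K1 lay between 0.08 without WT replicate 3 and 0.30 without WT replicate 2 (edgeR unadjusted p-value 0.0212, adjusted 0.432). H2-D1 lay between 0.01 without ΔrsCBE replicate 1 and 0.24 without WT replicate 2 (edgeR adjusted p-value 0.573).

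H2-K1 and H2-D1 are members of a family of similar genes, so part of their reads may not be assignable to 1 gene. Of all 50-base stretches in the annotated transcripts of H2-K1, 9.63% also occurred in transcripts of another gene, and the share for H2-D1 was 12.8%. At 100 bases the shares were 0.957% and 3.59%. For the other 8 members at most 0.488% of the 50-base stretches were shared. The read length and the handling of reads with several alignments are not given in the sources used here.

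B2m (chromosome 2, 122147686 to 122153083, plus strand) encodes β2-microglobulin, the light chain common to all class I molecules, and was the most abundant member. It had 1249, 2163 and 1379 CPM in the WT libraries and 1179, 1231 and 1196 CPM in the ΔrsCBE libraries. The groups did not overlap, but WT replicate 1 lay only just above the highest ΔrsCBE library, and WT replicate 2 stood far above all others. Its coefficient of variation was 31.0% in WT and 2.20% in ΔrsCBE, where counting alone gives 3.17% and 3.12%. The log2 fold change, ΔrsCBE against WT, came to -0.40 ± 0.17 (SE, 95% interval -0.78 to -0.02, unadjusted p-value 0.0407 and adjusted 0.446 by edgeR). Without WT replicate 2 it was -0.12 (edgeR adjusted p-value 0.816), and without WT replicate 1 it was -0.55 (edgeR adjusted p-value 0.0540). In the fit without a count filter, in which 171 of 17435 genes (0.981%) were called, B2m passed the threshold with a log2 fold change of -0.38 (adjusted p-value 0.0265 by edgeR).

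Tap1 (chromosome 17, 34187553 to 34197225, plus strand), a subunit of the transporter that brings peptides into the endoplasmic reticulum, had 146, 223 and 135 CPM in the WT libraries and 157, 125 and 121 CPM in the ΔrsCBE libraries. WT replicate 2 was again the highest library, and the other 5 lay close together. The log2 fold change, ΔrsCBE against WT, came to -0.27 ± 0.18 (SE, 95% interval -0.63 to 0.10, adjusted p-value 0.666 by edgeR), and it lay between -0.05 without WT replicate 2 and -0.43 without WT replicate 3 (edgeR unadjusted p-value 0.0439, adjusted 0.557). Without ΔrsCBE replicate 1 it was -0.38 (edgeR unadjusted p-value 0.0461, adjusted 0.403). Its exons share 212 bases with Psmb9 on the opposite strand.

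Counted over the list, 0 of the 9 tested members were called by the quasi-likelihood test of edgeR, with an adjusted p-value below 0.05 as the threshold, against 132 of 7792 tested genes (1.69%). At an unadjusted p-value under 0.05 the count was 1 of 9, B2m, against 10.2% of all tested genes. The groups did not overlap for 2 of 9, B2m and Ciita, against 16.1% of all. DESeq2's Wald test gave 0 of the 7 members that received an adjusted p-value, and no unadjusted p-value of a member was below 0.05 there. The shares called, at an unadjusted p-value under 0.05 and without overlap were thus of the order of those of all genes. Among the 9, 7 had a negative log2 fold change, including all 5 tested class II members, against 3758 of the 7792 tested genes. The median was -0.17, against 0.01 for all tested genes, and it moved between -0.44 and -0.01 when single libraries were left out.

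**Figure D2:**
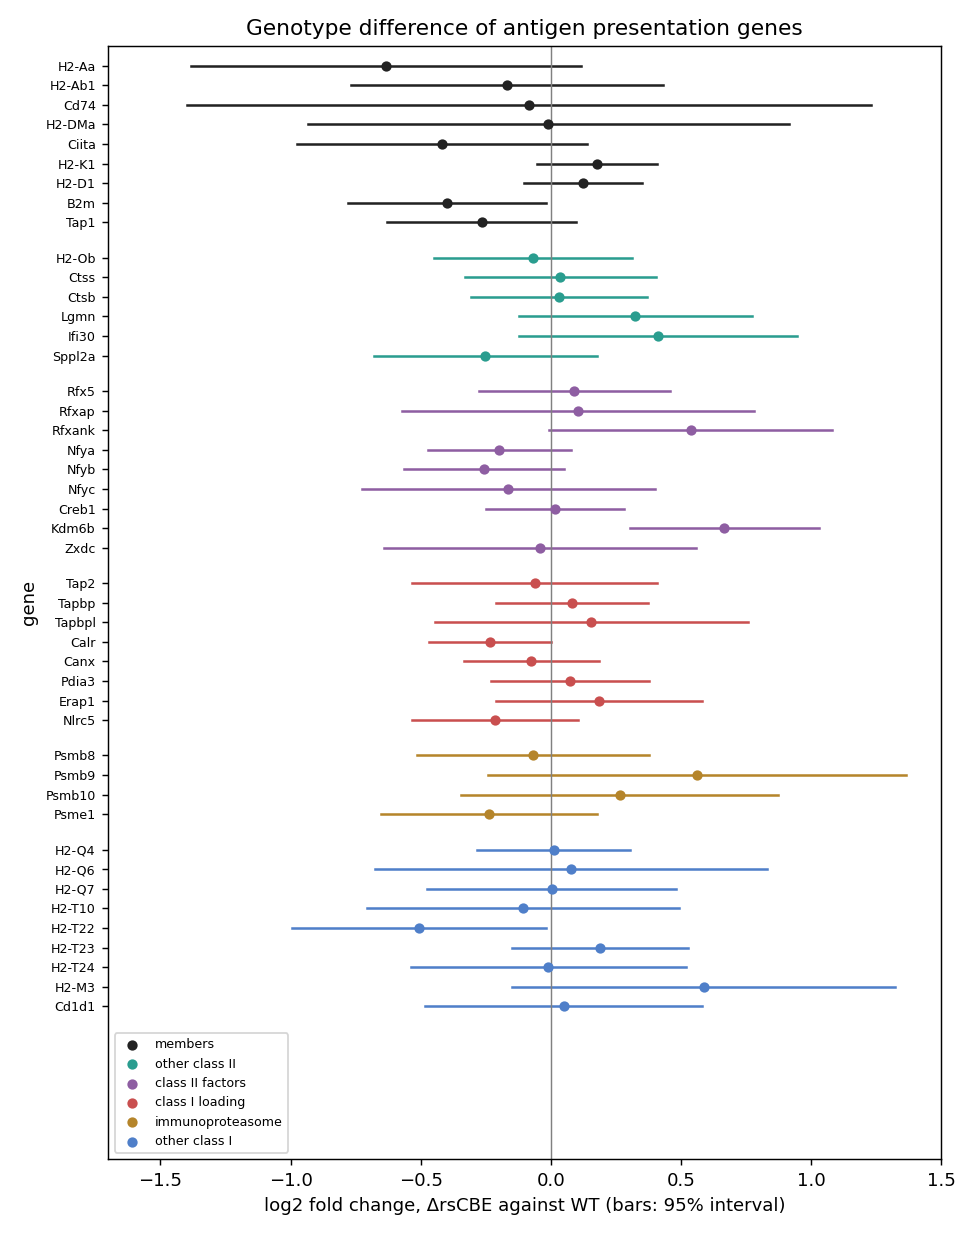
Log2 fold change of ΔrsCBE against WT (points) with 95% intervals (bars) for the 9 tested members and for the tested genes of 5 related lists, coloured by list. Intervals of B2m, Kdm6b and H2-T22 exclude 0 without an adjusted p-value below 0.05, those of Cd74 and H2-DMa are the widest among the members, and those of H2-K1 and H2-D1 the narrowest.

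Levels of different genes were compared as CPM per kb of merged annotated exons. In WT the order was B2m (1857 ± 575 CPM per kb, SD, n = 3), H2-D1 (416 ± 54.4), H2-K1 (284 ± 41.2), Cd74 (93.1 ± 49.4), Tap1 (30.7 ± 8.74), H2-Ab1 (23.9 ± 9.08), H2-Aa (6.16 ± 0.824), H2-DMa (4.54 ± 1.94), H2-Eb1 (4.42 ± 3.60) and Ciita (4.09 ± 0.297). Each of the first 4 exceeded the next gene in every pair of libraries, as did H2-Ab1 over H2-Aa. Tap1 and H2-Ab1 overlapped in range, and so did each gene with its neighbour among the last 4. The first 6 kept this order in ΔrsCBE, where B2m had 1398 ± 30.8, H2-D1 452 ± 61.4, H2-K1 320 ± 34.1 and Cd74 80.2 ± 20.1 CPM per kb. The last 4 overlapped there too. Merged exons sum all annotated isoforms, so a gene with long alternative exons, such as Ciita with 9.54 kb, reads low on this scale.

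The class II chains H2-Aa, H2-Ab1 and H2-Eb1 together reached 7.15%, 3.87% and 3.94% of the length-scaled level of H2-K1 and H2-D1 in the WT libraries, and 5.11%, 3.43% and 2.78% in the ΔrsCBE libraries. The means were 4.99% ± 1.87 and 3.77% ± 1.20 (SD, n = 3), a difference within the spread between libraries (exact two-sided permutation p-value 0.5, smallest possible 0.1). The difference of -1.22 percentage points became -0.136 without WT replicate 1 and -1.89 without ΔrsCBE replicate 1. H2-Aa stood at 0.166, 0.310 and 0.379 of the level of its partner H2-Ab1 in WT and at 0.196, 0.193 and 0.180 in ΔrsCBE. The α chain transcript was thus the lower of the pair in all 6 libraries, and the genotype difference in this ratio had an exact permutation p-value of 0.4. That difference of -0.0949 became -0.154 without WT replicate 1 (exact permutation p-value 0.1, the smallest possible) and -0.0479 without WT replicate 3. Adjusted over the 3 ratios computed, the p-values of 0.5 and 0.4 from all 6 libraries were both 0.5.

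**Figure D3:**
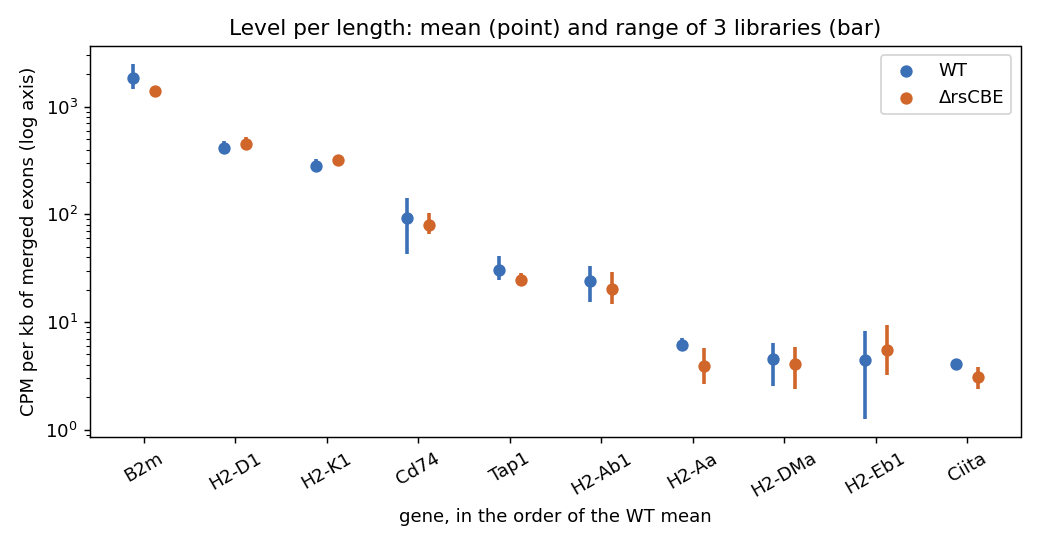
CPM per kb of merged exons (log axis) for each gene in the order of the WT mean, with points for the means and bars for the range of 3 libraries, blue WT and orange ΔrsCBE. B2m and the classical heavy chains stand above all class II pathway genes, from 1857 CPM per kb for B2m to 4.09 for Ciita in WT.

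The members differed between libraries of 1 genotype. WT replicate 2 was the highest WT library for 7 of the 9 tested members (H2-Aa, Cd74, H2-DMa, B2m, H2-K1, H2-D1 and Tap1), against 37.4% of all tested genes. WT replicate 3 was the lowest for 6 of 9, against 29.2% of all. WT replicate 2 is the shallowest of the 6 libraries and WT replicate 3 the deepest, and whether depth has a part in this was not tested. The summed level of all 10 members was 3543, 4973 and 3420 CPM in the WT libraries and 4036, 3417 and 3640 CPM in the ΔrsCBE libraries.

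Within ΔrsCBE, replicate 1 was the highest library for 7 of 9 members, all but H2-DMa and B2m, against 35.9% of all tested genes. It is also the 1 ΔrsCBE library without Xist counts, so its distance from the other 2 and the sex pattern cannot be told apart. Deviations from the gene mean show it: H2-Aa was at 0.23 in replicate 1 and at -0.47 and -0.72 in replicates 2 and 3 on the log2 scale. Ciita was at 0.11, -0.52 and -0.19, and H2-Ab1 at 0.45, -0.30 and -0.49. Leaving out the libraries with Xist counts, a comparison of ΔrsCBE replicate 1 with WT, gave log2 fold changes of -0.07 for H2-Aa, -0.10 for Ciita, 0.38 for H2-Ab1 and 0.32 for Cd74. Only the WT libraries supply the spread there, and the lone ΔrsCBE library is assumed to vary like them. In that comparison H2-D1 was at 0.33 and H2-K1 at 0.31.

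**Figure D4:**
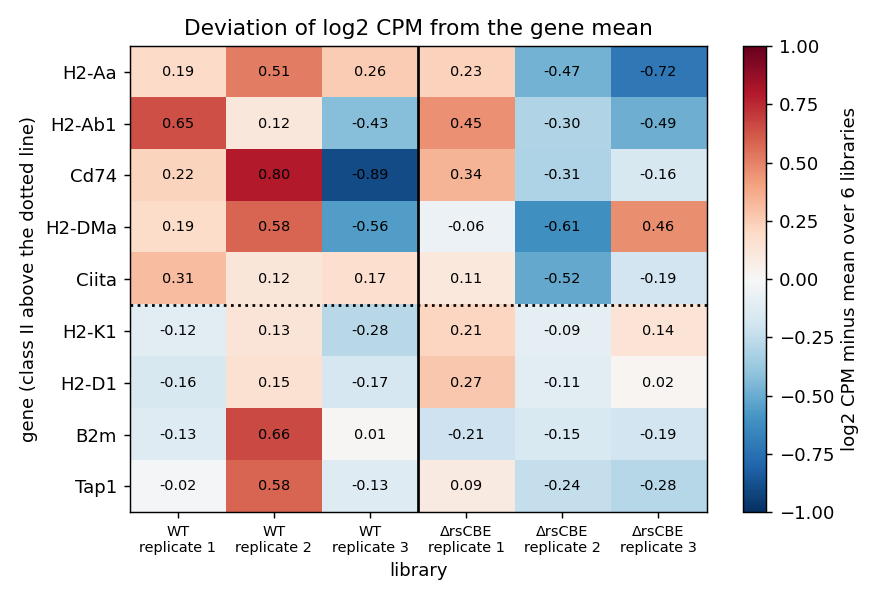
Log2 CPM of each tested member in each library minus the gene's mean over the 6 libraries, from blue (below) to red (above), with the value in each cell. WT replicate 2 is above the mean for all 9 genes, from 0.12 for H2-Ab1 and Ciita to 0.80 for Cd74, and H2-Aa, H2-Ab1 and Ciita are below 0 in ΔrsCBE replicates 2 and 3.

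None of the other class II pathway genes was called. Of 11 further class II chains, chaperones and lysosomal enzymes, 6 were tested and 0 passed the threshold, with 0 at an unadjusted p-value under 0.05 and a median log2 fold change of 0.03. Their most abundant members were Ctss, the protease that trims the invariant chain, at 125 ± 23.8 CPM in the WT and 124 ± 21.7 CPM in the ΔrsCBE libraries, the lysosomal protease Ctsb at 121 ± 5.16 and 124 ± 21.3 CPM, and H2-Ob at 97.3 ± 19.1 and 89.5 ± 8.39 CPM (SD, n = 3). H2-Ob encodes a chain of DO, the inhibitor of DM. Its partner H2-Oa and the β chains of DM, H2-DMb1 and H2-DMb2, were below the count filter.

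All 9 genes on the list of class II transcription factors were tested, 0 passed and the median was 0.01. Kdm6b, a histone demethylase, came closest, with 164, 115 and 131 CPM in the WT libraries and 248, 156 and 254 CPM in the ΔrsCBE libraries. Its log2 fold change, ΔrsCBE against WT, came to 0.67 ± 0.18 (SE, adjusted p-value 0.0522 by edgeR), and ΔrsCBE replicate 2 lay inside the WT range. Rfxank, a subunit of the complex that binds the X box, is named although the naming rule did not pick it. It had 26.0, 29.4 and 26.9 CPM in WT and 42.4, 37.2 and 39.2 CPM in the ΔrsCBE libraries, without overlap (log2 fold change 0.54 ± 0.26, SE, adjusted p-value 0.492 by edgeR). Nfyb, also named after its values were seen, did not overlap in the other direction. It had 195, 201 and 185 CPM in WT and 128, 179 and 176 CPM in ΔrsCBE (log2 fold change -0.26 ± 0.15, SE, adjusted p-value 0.603 by edgeR). These were the 2 of 9 factors without overlap, against 16.1% of all tested genes. The Y-box binding subunit Nfya had 224 ± 9.38 and 196 ± 20.7 CPM, and Creb1 had 301 ± 28.9 and 304 ± 40.8 CPM (SD, n = 3).

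Of 12 B-cell regulators that act on class II or on the B-cell program, 11 were tested and 1, Spi1, was called as higher. Over all 7792 tested genes, 16 were called as higher and 116 as lower, 1.69% in either direction. The adjusted p-value of Spi1 lay just under the threshold, and its values under the alternative fits are not given here. Spi1 encodes PU.1 and had 47.1, 56.4 and 41.2 CPM in the WT libraries and 83.5, 77.5 and 78.3 CPM in the ΔrsCBE libraries (log2 fold change 0.78, SE 0.21, adjusted p-value 0.0480 by edgeR). The most abundant regulators, Bach2, Pax5 and Tcf3, had log2 fold changes of 0.06, 0.11 and -0.09 (edgeR adjusted p-values 0.896, 0.773 and 0.801).

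For class I, all 8 genes of transport and peptide loading were tested and 0 passed, with a median of 0.01 and 0 at an unadjusted p-value under 0.05. The chaperone Calr had 1091 ± 142 CPM in the WT and 922 ± 132 CPM in the ΔrsCBE libraries, Canx, another chaperone, had means of 283 and 267 CPM, and the oxidoreductase Pdia3 had 252 ± 48.3 and 259 ± 41.1 CPM (SD, n = 3). Nlrc5, the class I counterpart of CIITA and named after its values were seen, had 149, 245 and 196 CPM in the WT libraries and 166, 168 and 168 CPM in the ΔrsCBE libraries. Like B2m and Tap1 it was highest in WT replicate 2, and the log2 fold change of -0.21 ± 0.16 (SE) missed the threshold (adjusted p-value 0.712 by edgeR). Of 5 immunoproteasome genes 4 were tested and 0 passed. Psme1 had 334 ± 87.5 and 275 ± 69.7 CPM and Psmb8 58.6 ± 6.87 and 56.0 ± 11.3 CPM.

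Of 21 other class I and class I-like heavy chain symbols, 20 were in the table, 9 were tested and 0 passed, with a median of 0.01. The most abundant were 3 genes of the Q series: H2-Q6 had 599, 738 and 599 CPM in the WT libraries and 927, 429 and 679 CPM in the ΔrsCBE libraries, H2-Q4 had 354 ± 55.9 and 352 ± 74.0 CPM, and H2-Q7 had 333 ± 112 and 328 ± 63.5 CPM (SD, n = 3). Their reads are uncertain where these similar genes could not be separated. Of 21 genes of interferon signalling and its targets, 13 were tested, 0 passed and 1, Stat2, had an unadjusted p-value under 0.05. The median was 0.10. Jak1 and Irf2, among its most abundant genes, had log2 fold changes of -0.02 and 0.18. Isg15, Ifit1, Ifit3 and Rsad2, classical interferon targets named after their values were seen, had between 0 and 6 counts in each library.

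Of 20 surface genes listed for B-cell maturation, 15 were tested with 0 calls and a median of 0.07. The list is not limited to later stages. It includes Il2ra, at 680 ± 25.0 CPM in the WT and 740 ± 41.4 CPM in the ΔrsCBE libraries (SD, n = 3). Fcer2a and Cr2, markers of mature B cells named after their values were seen, had 0 to 2 counts per library. Markers of other cells that express class II strongly had few or no counts, apart from Itgam. Whether RNA from such cells adds to the class II values was not tested. Of 15 macrophage, monocyte and dendritic cell markers, 8 had 0 counts in all 6 libraries, among them Itgax, Siglech, Xcr1 and Clec9a. Itgam alone passed the count filter. Their summed level was 56.2 to 88.3 CPM in WT and 61.7 to 73.4 CPM in ΔrsCBE, of which Itgam gave 51.5 to 83.4 and 47.2 to 61.0 CPM. Summed T and NK cell markers reached at most 2.53 CPM and erythroid markers 9.81 CPM in any library. Neutrophil markers summed to 0 to 2.45 CPM in WT and to 1.03 to 10.9 CPM in ΔrsCBE. Near the floor, S100a9 had 0 counts in each WT library and 2, 1 and 3 in ΔrsCBE, and Lyz2 had 0 and then 2, 4 and 2. Csf1r went the other way, with 4, 0 and 2 counts in WT and 1, 1 and 2 in ΔrsCBE.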

How the data were processed

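RNA-seq was analysed in 6 libraries of small pre-B cells. Per the labels' protocols, a SMARTer total RNA kit that keeps the strand was used after removal of ribosomal RNA. The authors deposited a single table of raw read counts, genes by symbol in rows and the 6 libraries in columns. The submitters' processing notes name Trim Galore 0.6.10, STAR 2.7.11, HTSeq, DESeq2 and the build mm10. Annotation, strand setting and filters are not given in the sources used here.

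The deposited counts were tested with edgeR 4.0.16 in R 4.3.3: filterByExpr with a minimum count of 10, which kept 7792 genes, TMM scaling, glmQLFit with robust estimation and genotype as the sole factor, glmQLFTest, and Benjamini-Hochberg adjustment over all tested genes. Standard errors come from the F statistic. An adjusted p-value under 0.05 was the threshold. DESeq2 1.42.0 was an alternative. The procedure was tested on simulated data. Deviations used log2 CPM with a prior count of 2, lengths came from GENCODE M21, and promoters from RefSeq. Floors cover counting error only.

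The members and lists were chosen with earlier results of these data known. By rule, the text names every member and, in each related list, genes past the threshold and at most the 3 most abundant tested genes.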

Additional observations from a re-analysis of the deposited data

How the results depend on the processing

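The count of members past the threshold was 0 under 15 of 16 alternatives. The exception was the fit without a count filter, which gave 1, B2m, and the cause was not tested. In the fits with the sex covariate and without the libraries with Xist counts, the genotype term rests on ΔrsCBE replicate 1 alone. Both of these fits can say little about stability. Over all genes the count of 132 became 87 with the sex covariate and lay between 59 and 187 when single libraries were left out, with 59 without WT replicate 3 or ΔrsCBE replicate 3. Replicate numbers did not pair the samples (correlations of deviations 0.013, 0.020 and 0.0091 for equal numbers). With the replicate block the count was 136 and 0 members passed, so the block changed no call among the members. The median log2 fold change of the members stayed below 0 throughout, from -0.44 to -0.01. The signs of H2-Aa, Ciita, B2m, Tap1, H2-K1 and H2-D1 did not change under any alternative run. The other 3 tested members changed sign. With the sex covariate Cd74 was at 0.31 and H2-Ab1 at 0.37, and without the libraries with Xist counts, a setting chosen after seeing the data, they were at 0.32 and 0.38. H2-DMa was at 0.0043 with a filter of 1 CPM in 3 libraries. When single libraries were left out, Cd74 lay between -0.54 and 0.31, H2-Ab1 between -0.51 and 0.18, and H2-DMa between -0.44 and 0.28. Depth limits H2-Aa, H2-Eb1 and H2-DMa, which had at most 28 reads in any library. Scaling by DESeq2 size factors, by library size or without MHC genes changed no sign.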

Other observations

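The H2 gene family as a whole was looked at beyond the listed genes. Of 50 symbols in the table that begin with H2-, 24 had 0 counts in every library and 26 had at least 1 count. H2-Q8 and H2-Q9 were listed at 0 throughout, whereas H2-Q5 had 138 to 372 counts and H2-K2 had 43 to 140 counts per library. In the interval of chromosome 17 from H2-K1 to H2-M2 (33996017 to 37483552, GENCODE M21 on GRCm38), 62 genes were tested and 1, the tubulin gene Tubb5, passed the threshold. Over all tested genes 1.69% passed. An edgeR unadjusted p-value under 0.05 was found for 11.3% of the genes in the interval, against 10.2% of all, and the median log2 fold change was 0.01.

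The ratio of the class I heavy chains to their common light chain was computed after the values of the members had been seen. The summed level per kb of H2-K1 and H2-D1, divided by that of B2m, was 0.456, 0.321 and 0.394 in the WT libraries and 0.633, 0.476 and 0.552 in the ΔrsCBE libraries, replicates in order. All ΔrsCBE libraries lay above all WT libraries, with means of 0.390 ± 0.0674 and 0.553 ± 0.0783 (SD, n = 3). The difference of 0.163 gave p = 0.1 in an exact two-sided permutation test, which cannot go lower with 3 against 3, and 0.3 after adjustment over the 3 ratios computed. It lay between 0.123 and 0.202 when single libraries were left out. Without WT replicate 2, the library with the highest B2m level, it was 0.128.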
